A study of Bos taurus with 6 samples.

Results

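FASN, ACACA, ACLY, SCD, SCD5, ELOVL5, ELOVL6, FADS1, FADS2 and THRSP are 10 genes of fatty acid synthesis, elongation and desaturation. They were picked by name for their roles in that pathway, with earlier results of these data known, so counts of members beside all genes are descriptive. All 10 were found among the 17258 genes with a value in longissimus dorsi muscle of cattle, and all 10 were among the 9765 genes whose mean FPKM (fragments scaled to the length of the transcript in kilobases and to the size of the library) reached 1 in at least 1 breed and which were therefore tested. The muscle came from 3 Shandong black cattle (B), a breed combined from Japanese black, Luxi and Bohai black cattle, and from 3 Luxi cattle (L), a local yellow breed. All 6 animals were 18 months old, no treatment is named for either breed, and each animal gave 1 RNA-Seq library. The libraries rested on 14.1 to 14.6 gigabases of aligned sequence in Shandong black cattle and on 17.5 to 17.99 gigabases in Luxi cattle. XIST, the RNA of the inactive X chromosome of females, was at 10.7, 4.83 and 14.04 FPKM in Shandong black cattle and at 0, 0 and 0.207 in Luxi cattle. The labels used here give no sex and Y-linked genes were not analysed here. The paper also names a different source of animals for each breed, and states that feeding management was unified. Breed, source and the XIST difference thus cannot be told apart in any value that follows.

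Fatty acids are built in the cytosol from acetyl-CoA, part of which ACLY releases from citrate. ACACA turns acetyl-CoA into malonyl-CoA, and FASN links these units into palmitate. Elongases lengthen the chain, and desaturases put in double bonds: SCD and SCD5 make monounsaturated fatty acids such as oleate, while FADS1, FADS2 and ELOVL5 work on polyunsaturated chains. In ruminants most of this synthesis takes place in adipose tissue, so a piece of muscle carries it in its fat cells as well as in its fibres, and the product of SCD is one of the main fatty acids of beef fat.

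No member was called differentially expressed between the breeds, where a call needed an adjusted p under 0.05 and a log2 fold change no smaller in size than 1. By the same rule limma with Benjamini-Hochberg adjustment called 249 of all genes tested, or 2.55%. The paper, which used Cuffdiff, lists SCD5 among its downregulated and FADS2 among its upregulated genes, and gives fold changes as Luxi over Shandong black. ELOVL6 was the only member past the adjusted p alone, which 2.91% of all genes passed. Without adjustment 5 of the 10 members had a p under 0.05, against 21.9% of all genes, and limma voom on estimated read numbers also called 0 members. In 4 members the animals of the breeds did not overlap, against 29.1% of all genes. THRSP, SCD5 and ELOVL6 were lower in every Luxi animal than in every Shandong black animal (9.10% of all genes), and FADS1 was higher in every Luxi animal (20.0% of all genes). The median log2 fold change (Luxi over Shandong black, on log2(FPKM + 1)) was -0.27 over the 10 members, of which 6 were lower and 4 higher in Luxi cattle, and 0.13 over all genes tested. On this scale the change of genes with low FPKM is understated, so ratios of mean FPKM are given beside it. In bulk muscle, fewer cells of a type and less RNA per cell cannot be told apart.

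**Figure D1:**
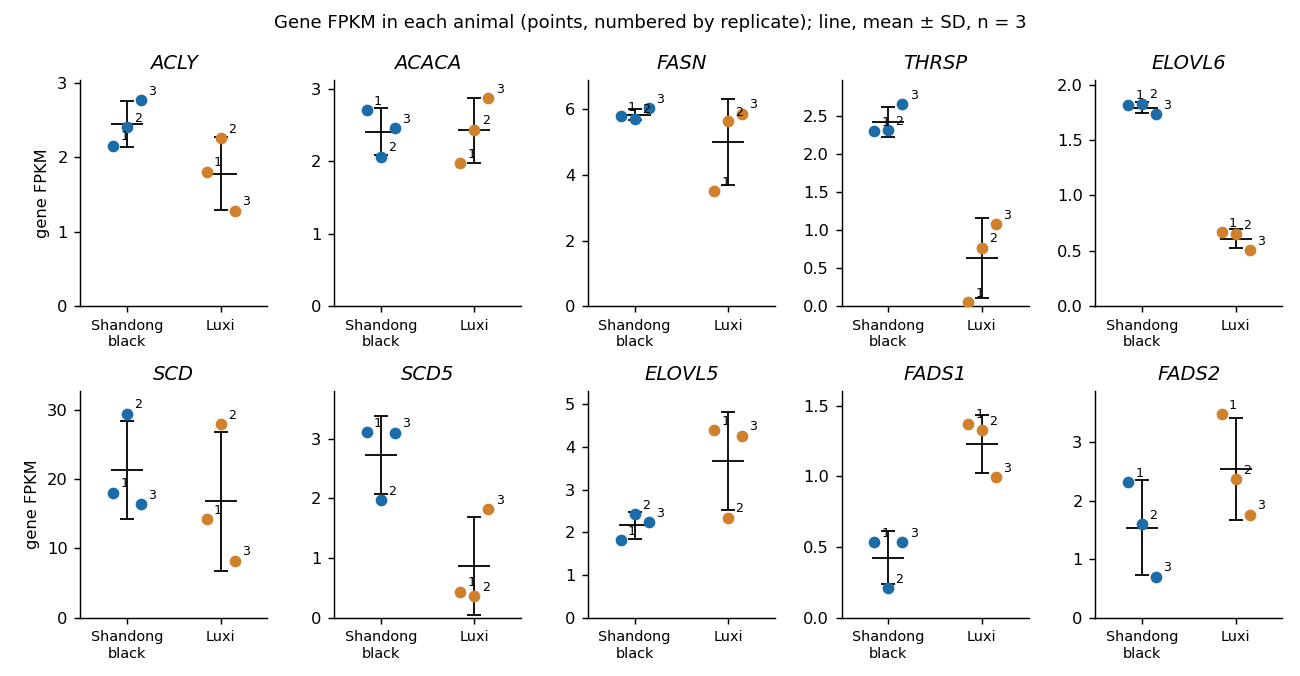
Gene FPKM (y axis, from 0) of the 10 genes in each animal, with Shandong black cattle in blue, Luxi cattle in orange, the replicate number beside each point, and the mean ± SD of 3 animals in black. THRSP, ELOVL6 and SCD5 separate the breeds downward in Luxi cattle, FADS1 separates them upward, and the points of FASN, ACACA, ACLY, SCD, ELOVL5 and FADS2 overlap.

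ACLY, ACACA and FASN, the enzymes that lead from citrate to palmitate, overlapped between the breeds, and the 95% interval of each log2 fold change included 0. ACLY, which lies in ARS-UCD1.2 on chromosome 19 from 42049434 to 42093838 on the minus strand, was at 2.15, 2.40 and 2.77 FPKM in replicates 1, 2 and 3 of Shandong black cattle and at 1.80, 2.26 and 1.28 FPKM in replicates 1, 2 and 3 of Luxi cattle, the order kept below. Luxi replicate 2 lay above Shandong black replicate 1, so the breeds overlapped. The Shandong black mean was 2.44 ± 0.308 FPKM and the Luxi mean 1.78 ± 0.488 (SD, n = 3), a log2 fold change of -0.32 with a 95% interval from -0.76 to 0.12 (limma adjusted p = 0.357).

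ACACA, which encodes acetyl-CoA carboxylase alpha, the enzyme of the committed step, lies on chromosome 19 from 13439533 to 13726365 on the minus strand. Its FPKM was 2.70, 2.06 and 2.46 in Shandong black cattle and 1.97, 2.43 and 2.87 in Luxi cattle. The 2 ranges covered each other almost fully. The means were 2.41 ± 0.322 (SD, n = 3) and 2.43 ± 0.449 (SD, n = 3), and the log2 fold change of 0.00 had a 95% interval from -0.40 to 0.41 (limma adjusted p = 0.993).

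FASN, the fatty acid synthase itself, on chromosome 19 from 50776167 to 50794939 on the plus strand, was nearly level among the Shandong black animals at 5.78, 5.70 and 6.01 FPKM. The Luxi animals had 3.50, 5.63 and 5.86, so that replicate 1 alone stood apart and the other 2 lay at the Shandong black level. Its log2 fold change was -0.21, with a 95% interval from -0.70 to 0.27 (limma adjusted p = 0.581), and it was -0.02 without Luxi replicate 1. These 3 genes share a chromosome but are far apart on it.

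THRSP encodes the nuclear protein Spot 14, which is known to follow the rate of fat synthesis in liver and adipose tissue. It lies on chromosome 29 from 17989040 to 17994946 on the minus strand. Its FPKM was 2.30, 2.31 and 2.65 in Shandong black cattle, and 0.0540, 0.771 and 1.081 in Luxi cattle. The Shandong black animals lay close together, and Luxi replicate 1 had nearly none, with 9 reads estimated from the coverage against 126 and 176 in the other Luxi animals and 300 to 356 in Shandong black cattle. The mean was 3.81 times as high in Shandong black cattle (2.42 ± 0.201 FPKM, SD, n = 3) as in Luxi cattle (0.635 ± 0.527, SD, n = 3). A log2 fold change of -1.12, with a standard error of 0.26, was the largest in size among the members, and missed the threshold, with a limma adjusted p of 0.0727. Without Luxi replicate 1, the animal with the lowest value, the log2 fold change was -0.83 and the limma adjusted p was 0.0341.

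ELOVL6 elongates palmitate to stearate, the substrate of the stearoyl-CoA desaturases. It lies on chromosome 6 from 15228080 to 15362449 on the plus strand. Its FPKM was 1.82, 1.83 and 1.74 in Shandong black cattle and 0.668, 0.651 and 0.509 in Luxi cattle. The animals within a breed lay closer together than for any other member, with an SD of 0.0502 in Shandong black cattle and of 0.0873 in Luxi cattle for summed FPKM. With length weighting, described below, the SD in Shandong black cattle was 0.315, above that of 7 other members. The mean was 2.94 times as high in Shandong black cattle (1.79 FPKM) as in Luxi cattle (0.609 FPKM). Its log2 fold change of -0.80, with a standard error of 0.15, had a limma adjusted p of 0.0439, past the p threshold and short of the fold threshold. That p was not stable: it ranged from 0.0329 to 0.103 over 12 fits that kept all 6 animals and passed in 5 of them, and it passed in 1 of the 6 fits that left out an animal, at 0.0301 without Luxi replicate 1 and up to 0.198 without Shandong black replicate 3. Its size was steadier, between -0.82 and -0.75 with an animal left out.

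The ELOVL6 value rests on transcripts that differ between animals. Of the annotated transcripts, one has a last exon of 4330 bases and one of 2362 bases, and the longer one was listed in Shandong black replicates 1 and 3 and Luxi replicate 1 only. In Luxi replicate 3 neither was listed, and the gene was represented by an assembled transcript of 4 exons and 4956 bases. In Shandong black replicate 2 a fragment of 1 exon and 1523 bases was counted beside the reference transcript. A length-weighted gene FPKM, in which each transcript counts by its length over the exon bases of the gene, allows for such fragments. On that scale ELOVL6 was at 1.59, 0.994 and 1.48 in Shandong black cattle and at 0.455, 0.382 and 0.525 in Luxi cattle, still without overlap, and the log2 fold change was -0.69, with a limma adjusted p of 0.0729.

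SCD, the stearoyl-CoA desaturase of fat tissue, had the highest FPKM of the 10 genes in every animal and also the widest spread within a breed. It lies on chromosome 26 from 21263976 to 21279185 on the plus strand. Its FPKM was 18.05, 29.5 and 16.4 in Shandong black cattle and 14.2, 27.9 and 8.24 in Luxi cattle. Replicate 2 was the highest animal of each breed, and the breeds overlapped. The means were 21.3 ± 7.10 (SD, n = 3) and 16.8 ± 10.1 (SD, n = 3), and the log2 fold change of -0.44 had a 95% interval from -1.45 to 0.58 (limma adjusted p = 0.586), which includes a change past the fold threshold. Without Luxi replicate 2 the log2 fold change was -0.87, without Luxi replicate 3 it was -0.04, and without Shandong black replicate 2 it was -0.19. Over the 6 animals, the tested genes whose centred log2(FPKM + 1) ran closest to that of SCD were DCAF6, ABT1 and BCS1L, with root-mean-square differences of 0.16, 0.22 and 0.26 on the log2 scale.

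SCD5, a desaturase of the same reaction that is known mainly from brain and pancreas, showed another pattern. It lies on chromosome 6 from 97461663 to 97637658 on the minus strand. Its FPKM was 3.11, 1.97 and 3.10 in Shandong black cattle and 0.437, 0.358 and 1.81 in Luxi cattle. Luxi replicate 3 came close to Shandong black replicate 2, and the other Luxi animals were well below. The mean was 3.14 times as high in Shandong black cattle (2.72 ± 0.655 FPKM, SD, n = 3) as in Luxi cattle (0.869 ± 0.818, SD, n = 3), and the log2 fold change of -1.06 (standard error 0.31) missed the threshold, with a limma adjusted p of 0.111. In Luxi replicate 2 the reads were assembled only as 2 fragments, of 1329 and 797 bases, with 43 reads estimated in all, and its length-weighted FPKM was 0.143. On the length-weighted scale the breeds did not overlap either, and the log2 fold change was -1.20, with a limma adjusted p of 0.0797.

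**Figure D2:**
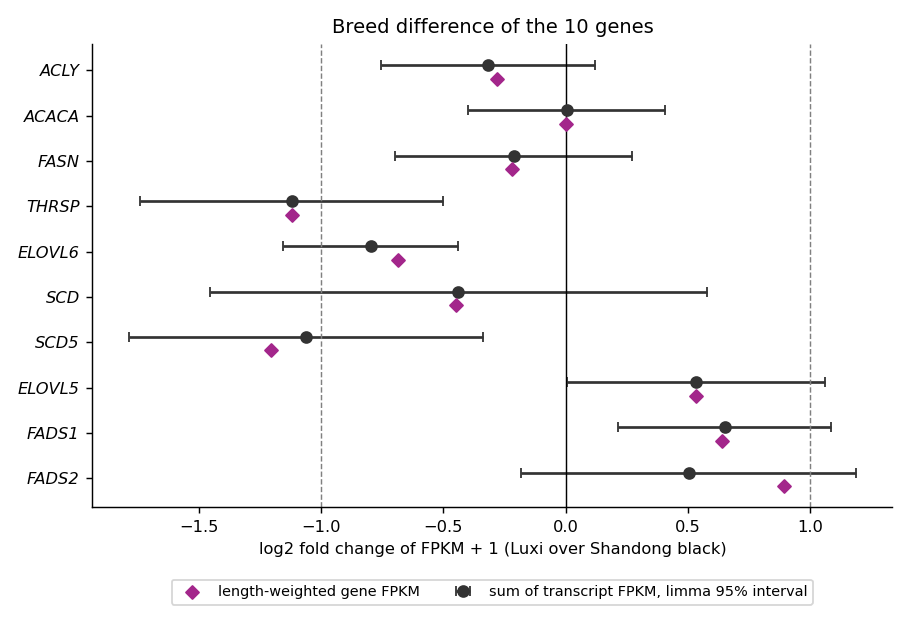
Log2 fold change of FPKM + 1, Luxi over Shandong black cattle (x axis), for the 10 genes, with circles and bars for the sum of transcript FPKM and its 95% interval from limma, diamonds for the length-weighted gene FPKM, and dashed lines at the fold threshold. The intervals of THRSP, ELOVL6 and SCD5 lie below 0 and those of ELOVL5 and FADS1 above it, before adjustment over all genes, and the diamond of FADS2 at 0.89 stands apart from its circle at 0.50.

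The 3 genes of polyunsaturated fatty acid synthesis were all higher on average in Luxi cattle. ELOVL5, which elongates polyunsaturated chains, lies on chromosome 23 from 25400732 to 25474020 on the minus strand. Its FPKM was 1.82, 2.42 and 2.24 in Shandong black cattle and 4.39, 2.35 and 4.27 in Luxi cattle. Luxi replicate 2 lay within the Shandong black range and the other Luxi animals well above it. Its log2 fold change of 0.53 (standard error 0.23) missed the threshold, with a limma adjusted p of 0.224. In Luxi replicate 1 other transcripts on the same strand overlapped the span of the gene and were not assigned to it. They held a further 1258 estimated reads beside the 1456 counted.

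FADS2 encodes the delta-6 desaturase, which acts on linoleic and alpha-linolenic acid, and FADS1 the delta-5 desaturase, which acts on later products of that route. They lie on chromosome 29 on opposite strands, FADS1 from 40244825 to 40258199 on the minus strand and FADS2 from 40350542 to 40387559 on the plus strand, with 92342 bases between them. FADS1 had an FPKM of 0.533, 0.208 and 0.536 in Shandong black cattle and of 1.37, 1.33 and 0.992 in Luxi cattle. Every Luxi animal was above every Shandong black animal, and the mean was 2.89 times as high (1.23 ± 0.207 against 0.426 ± 0.188 FPKM, SD, n = 3). The log2 fold change of 0.65 (standard error 0.19) missed the threshold, with a limma adjusted p of 0.107, and between 59.8 and 485 estimated reads stood behind a value.

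FADS2 had an FPKM of 2.32, 1.60 and 0.699 in Shandong black cattle and of 3.48, 2.37 and 1.76 in Luxi cattle, and the breeds overlapped. Summed FPKM gave a log2 fold change of 0.50 with a standard error of 0.29 (limma adjusted p = 0.353). The summed FPKM of Shandong black replicates 1 and 2 came wholly from fragments. In replicate 1 these were a transcript of 11 exons and 1198 bases at 1.95 FPKM and a last exon of 1749 bases at 0.365 FPKM, and in replicate 2 transcripts of 1169 and 1567 bases, where the whole reference transcript has 12 exons and 2957 bases. Adding their FPKM counts each fragment as if it were the whole gene. With length weighting FADS2 was at 0.870, 0.600 and 0.597 FPKM in Shandong black cattle and at 2.996, 2.05 and 1.52 in Luxi cattle. The breeds then did not overlap, the mean was 3.18 times as high in Luxi cattle, and the log2 fold change was 0.89 (limma adjusted p = 0.0632). On that scale the breeds did not overlap in 5 of the 10 members, against 30.3% of all genes. With reference transcripts only, on which Shandong black replicates 1 and 2 are listed at 0, FADS2 had a log2 fold change of 1.57 and was called (limma adjusted p = 0.0383). The estimated reads of FADS2 were 197 to 280 in Shandong black cattle and 609 to 1231 in Luxi cattle, from the deeper libraries.

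Fold changes depend on how the libraries are scaled. Median-of-ratios size factors brought the median over all genes tested from 0.13 to 0.02, and with quantile normalization it was 0.00. With size factors FADS1 had a log2 fold change of 0.59, ELOVL5 of 0.42, FADS2 of 0.40, ELOVL6 of -0.87, THRSP of -1.21 and SCD5 of -1.16, and none changed its direction. ACACA did, at -0.11. Of the 249 genes called in all, 152 were higher and 97 lower in Luxi cattle, and with size factors 116 were higher and 147 lower.

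Ratios of 2 members within an animal do not depend on the scaling of libraries. ELOVL6 over ELOVL5 was the only one of 5 ratios in which the breeds did not overlap. It was 0.997, 0.753 and 0.773 in Shandong black cattle and 0.152, 0.278 and 0.119 in Luxi cattle, a difference of -2.28 on the log2 scale. An exact permutation test, two-sided, gave p = 0.1, the lowest value that 3 against 3 can reach, and 0.5 with Benjamini-Hochberg adjustment over the 5 ratios. SCD over SCD5 ranged from 5.30 to 14.97 in Shandong black cattle and from 4.55 to 78.1 in Luxi cattle, and FASN over ACACA from 2.14 to 2.76 and from 1.78 to 2.31. SCD over FASN and FADS2 over FADS1 also overlapped, with log2 differences of -0.21 and -0.81, the latter -0.03 with length weighting.

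The assembled transcripts of SCD differed in the first exon. The annotated first exon has 171 bases and ends at 21264146. A transcript of 6 exons, like the annotated one, whose first exon ran on to 21264384, for 409 bases, was assembled in Shandong black replicates 1 and 2 and Luxi replicates 1 and 2. A longer one still, of 553 bases, was assembled in Shandong black replicates 2 and 3 and Luxi replicate 1, and a transcript of 7 exons, with an extra exon in the first intron, in Shandong black replicates 2 and 3, after a first exon of 171 bases in replicate 2 and of 409 in replicate 3. The annotated transcript held 38.1, 48.1 and 64.1% of the SCD FPKM in Shandong black cattle and 28.2, 38.9 and 100% in Luxi cattle. Its mean share was 50.1 ± 13.1% and 55.7 ± 38.7% (SD, n = 3), and the breeds overlapped (exact two-sided permutation p = 0.9). Luxi replicate 3, the animal with the lowest SCD FPKM, was the only one in which no other form was assembled. Each library was assembled on its own, so a form missing from an animal was not assembled there and need not be absent.

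**Figure D3:**
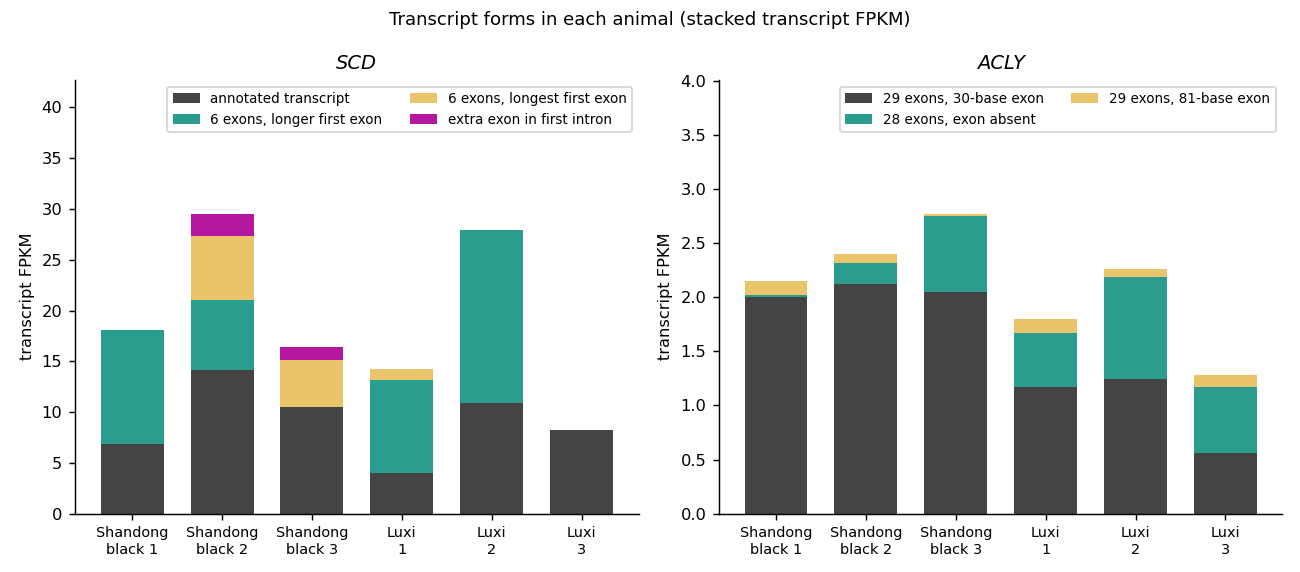
Transcript FPKM (y axis, from 0) of the forms of SCD (left) and ACLY (right), stacked for each of the 6 animals. The forms of SCD vary within each breed, and the ACLY form without the alternative exon takes a larger share in each Luxi animal than in each Shandong black animal.

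ACLY was carried by its 3 annotated transcripts in every animal, and some of their shares separated the breeds although the gene total did not. The transcripts differ in an alternative exon whose lowest coordinate is 42075016 on chromosome 19, its end on the minus strand. This exon has 30 bases in one transcript, 81 bases in another and is absent from the third, of 28 exons. The transcript without it held 0.963, 7.91 and 25.2% of the ACLY FPKM in Shandong black cattle and 27.6, 41.9 and 48.2% in Luxi cattle. Every Luxi animal was above every Shandong black animal, although Luxi replicate 1 and Shandong black replicate 3 differed little. The transcript with 30 bases was the mirror image, at 93.2, 88.3 and 74.1% and at 65.0, 55.1 and 43.6%. For either share an exact permutation test, two-sided, gave p = 0.1, its lowest possible value. These shares were chosen for description after the transcripts had been seen, and they also rest on an end of the transcript that differs, since the form with 30 bases stops at 42049956 and the others at 42049434.

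ACACA is known to be transcribed from several promoters. Its transcripts were listed with 5 starts, of which the one at 13677484 to 13677499 held 95.7, 66.7 and 84.2% of the ACACA FPKM in Shandong black cattle and 56.0, 80.7 and 90.9% in Luxi cattle. The most upstream start, at 13725908 to 13726365, held 31.6% in Shandong black replicate 2 and 33.5% in Luxi replicate 1, the lowest animals for the former start, and the breeds overlapped for every start.

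The other genes of the pathway were taken from a list of 47, of which 40 were tested. By limma with adjustment over all genes tested, 1 was called higher in Luxi cattle and 0 lower, against 1.56% and 0.993% of all genes. In 12 of the 40 the breeds did not overlap, close to the 29.1% of all genes, with 4 higher (20.0% of all genes) and 8 lower in Luxi cattle (9.10% of all genes), and the median log2 fold change over the 40 was -0.07. ELOVL2, ELOVL3 and ELOVL4 were not analysed here.

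The 6 genes that supply acetyl groups and NADPH had a median log2 fold change of -0.44, and all 6 were lower on average in Luxi cattle, none of them called. SLC25A1, the carrier that exports citrate from mitochondria to ACLY, had an FPKM of 10.5, 4.43 and 6.90 in Shandong black cattle and of 1.97, 0.561 and 2.41 in Luxi cattle. The breeds did not overlap, and the log2 fold change of -1.66 missed the threshold, with a limma adjusted p of 0.0639, but passed it with size factors (limma adjusted p = 0.0489), quantile normalization and the replicate block. ME1, the cytosolic malic enzyme, was lower in every Luxi animal, at 1.94 to 3.63 against 4.004 to 4.57 FPKM (log2 fold change -0.48, limma adjusted p = 0.224). IDH1, the cytosolic isocitrate dehydrogenase, overlapped between the breeds (log2 fold change -0.45).

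**Figure D4:**
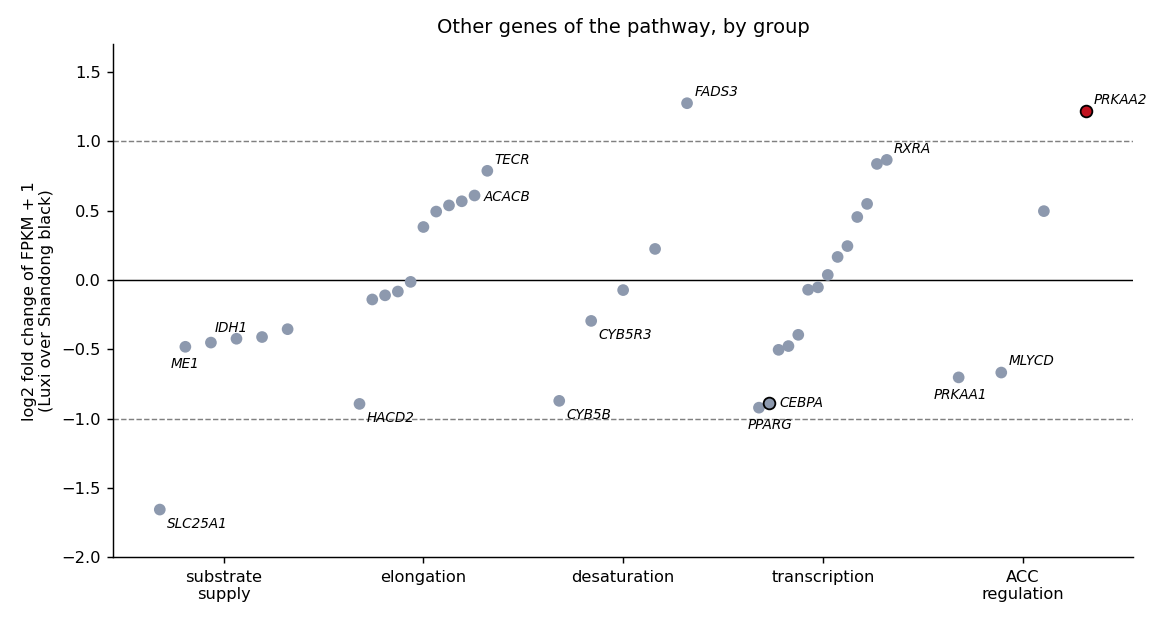
Log2 fold change of FPKM + 1, Luxi over Shandong black cattle (y axis), of the 40 other pathway genes tested, by group, with the called gene in red, an outline where the limma adjusted p was under 0.05, dashed lines at the fold threshold, and names for the 3 genes furthest from 0 in a group. All 6 genes of substrate supply lie below 0, and the other groups lie on both sides.

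The elongation group held ACACB, MCAT, OXSM and MECR, which are not enzymes of the elongation cycle, beside elongases and enzymes of that cycle. Among its 11 tested genes, 6 were higher and 5 lower in Luxi cattle, none of them called. HACD2, a 3-hydroxyacyl-CoA dehydratase, was at 2.63, 3.11 and 1.74 FPKM in Shandong black cattle and at 1.12, 0.511 and 0.985 in Luxi cattle (log2 fold change -0.89, limma adjusted p = 0.0816). TECR, the reductase that closes the cycle, and ACACB, the carboxylase at the mitochondrial surface, overlapped between the breeds, with log2 fold changes of 0.79 and 0.61. Of the 5 tested desaturation genes none was called. FADS3, a relative of FADS1 and FADS2, was at 5.12, 3.70 and 4.63 FPKM in Shandong black cattle and at 20.0, 5.94 and 14.7 in Luxi cattle. All 3 Luxi animals were above the Shandong black animals, by a little in replicate 2, and the log2 fold change of 1.27 missed the threshold, with a limma adjusted p of 0.126. CYB5B and CYB5R3, which carry electrons, overlapped between the breeds, with log2 fold changes of -0.87 and -0.30.

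The 14 tested regulators of transcription and SREBP processing were split, 7 higher and 7 lower. SREBF1, which drives lipogenic genes in liver and fat, had means of 15.6 and 15.8 FPKM (log2 fold change -0.07), and was named here after its values were seen. PPARG and CEBPA, which drive fat cell formation, were lower in every Luxi animal. PPARG was at 3.31, 4.81 and 3.02 FPKM in Shandong black cattle and at 2.12, 1.10 and 1.27 in Luxi cattle (log2 fold change -0.92, limma adjusted p = 0.0789). CEBPA was at 1.56, 1.21 and 1.65 and at 0.287, 0.438 and 0.279, and its log2 fold change of -0.89 passed the p threshold (limma adjusted p = 0.0436) and not the fold threshold. RXRA, the partner of PPARG, was higher in every Luxi animal (log2 fold change 0.86, limma adjusted p = 0.161).

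Of 4 genes that bear on acetyl-CoA carboxylase, its product or its kinase, PRKAA2 rose in Luxi cattle. It encodes the AMPK catalytic subunit alpha 2, which is prominent in muscle and phosphorylates the carboxylase. Its FPKM was 2.76, 3.80 and 4.04 in Shandong black cattle and 7.62, 13.0 and 8.48 in Luxi cattle, and every Luxi animal was well above the Shandong black animals. With a log2 fold change of 1.22 ± 0.24 (standard error), the limma adjusted p was 0.0462. The call was held in 1 of the 6 fits that left out an animal, the one without Luxi replicate 1, and in 5 of the 13 fits that kept all 6 animals. It was lost, among others, with size factors (limma adjusted p = 0.0557), quantile normalization (0.0549), reference transcripts only (0.0582) and length weighting (log2 fold change 0.73, limma adjusted p = 0.0778). PRKAA1, the alpha 1 subunit, was lower in every Luxi animal (log2 fold change -0.70, limma adjusted p = 0.149). MLYCD, which breaks down malonyl-CoA, overlapped between the breeds (log2 fold change -0.67).

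Of the markers of fat cells, 6 were lower and 1 was higher in every Luxi animal, while CFD and AQP7 overlapped between the breeds. All 9 adipocyte markers had values, and their summed FPKM was 197 to 328 in Shandong black cattle and 79.4 to 126 in Luxi cattle. In Luxi cattle the largest terms of that sum were AQP7, at 37.2 to 70.4 FPKM, and LPL, at 23.3 to 37.2 FPKM. Of 8 tested, ADIPOQ, PLIN1, FABP4 and CIDEC were called lower in Luxi cattle, and LPL, which muscle fibres and vessels also hold, was higher in every Luxi animal. LEP was at 0 in Luxi replicate 1 and at most 0.0881 FPKM in the other Luxi animals. Over ADIPOQ, PLIN1, FABP4, CIDEC, LPL and LEP log2(FPKM + 1) averaged 4.11 ± 0.196 in Shandong black and 1.87 ± 0.559 in Luxi cattle (SD, n = 3), a difference of -2.24, and over all 9 markers, added after seeing the data, the difference was -1.74. On this scale 8 of the 10 members could not fall by 2.24 even at 0 FPKM, so their level per marker says nothing about the breeds, and only FASN and SCD are given. FASN per marker level in the same animal was higher by 2.03 in Luxi cattle (1.53 with 9 markers), without overlap, with a two-sided exact permutation p of 0.1, or 0.111 with Benjamini-Hochberg adjustment over 10 members. SCD per marker level was higher by 1.80 (1.304 with 9 markers), and the breeds overlapped (exact permutation p = 0.2). These differences are the log2 fold changes of FASN (-0.21) and SCD (-0.44) less the -2.24 of the markers. That mean includes ADIPOQ, PLIN1, FABP4 and CIDEC, called lower in these same data. An unchanged member would also come out higher per marker level, so neither value shows a change of FASN or SCD. The part of fat cell number in the values of the members was not tested.

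**Figure D5:**
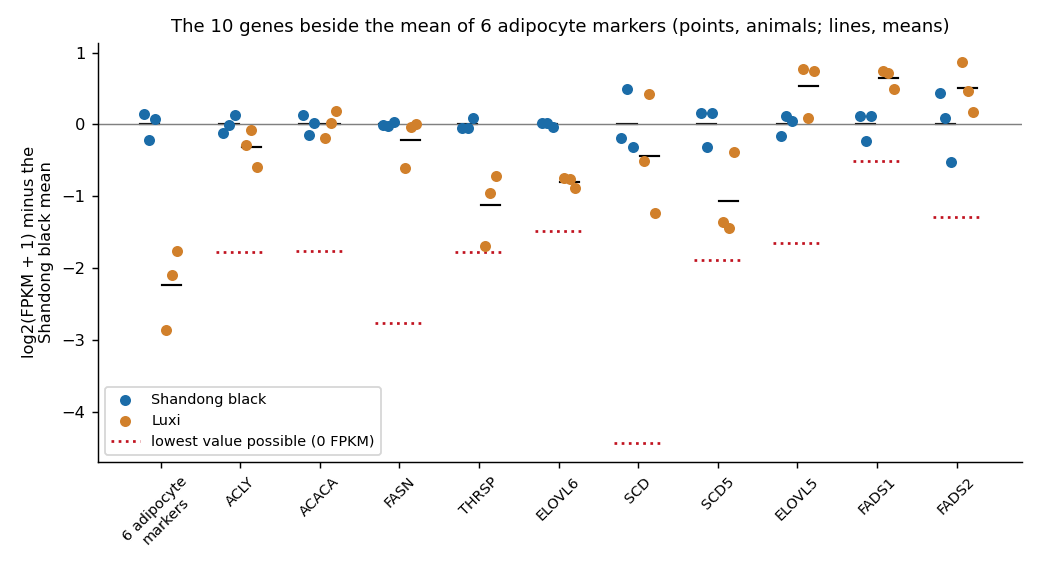
Log2(FPKM + 1) minus the Shandong black mean (y axis) for the mean of 6 adipocyte markers and for each of the 10 genes, with 1 point per animal, blue for Shandong black and orange for Luxi cattle, a line at each breed mean, and a dotted line at the lowest value that 0 FPKM allows. The markers lie 2.24 lower in Luxi cattle, and only FASN and SCD have a dotted line below that level.

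Of the other marker lists, muscle fibre genes summed to 45552 to 56356 FPKM in Shandong black cattle and to 23656 to 74092 in Luxi cattle, and ACTA1, skeletal actin, was at 12237 to 54910 in all 6 animals, as the tissue label requires. Luxi replicate 1, the animal that stood apart in FASN and THRSP, had the lowest ACTA1 and also the lowest DES, at 174 FPKM against 1253 and 1998 in the other Luxi animals, and the highest PECAM1, at 28.99 FPKM. ACTA1, DES, PECAM1 and TNNT3 were named here after their values were seen. Of the 9 muscle fibre genes, 5 were higher and 4 lower in Luxi cattle. TNNT3, fast troponin T, was the only one without overlap, where 20.0% of all genes had every Luxi animal above. It was at 49.1 to 330 FPKM in Shandong black cattle and at 585 to 2142 in Luxi cattle (log2 fold change 2.95, limma adjusted p = 0.101). The part of these differences in the values of the members was not tested. The sums were 11.01 to 11.95 and 16.3 to 43.8 for the endothelial markers PECAM1 and CDH5, 68.1 to 98.6 and 91.4 to 153 for fibroblast, 5.65 to 8.80 and 3.50 to 8.25 for macrophage, 1.28 to 1.79 and 0.821 to 3.61 for Schwann cell and 0.539 to 0.777 and 0.199 to 1.34 for blood markers. None of the genes in these lists was called.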

How the data were processed

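Muscle RNA of 3 Shandong black and 3 Luxi cattle was sequenced, 1 library per animal, and animals were grouped by the breed in the labels. The authors cleaned the reads (Fastp), mapped them to ARS-UCD1.2 (HISAT) and assembled each library with StringTie (1.3.3b per the file headers, where the paper names a later version) in a strand-specific, annotation-guided run. The authors deposited coverage, FPKM and TPM for each transcript. Whole read counts were not used here, and reads were estimated as coverage times length over a read length of 150 bases.

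Gene FPKM was the sum over reference transcripts and over unnamed assembled transcripts that lay by 50% or more on exons of that gene and strand. Loci with the same name were added together. Assembled transcripts that entered no gene held 21.9 to 30.8% of a library's FPKM, and a gene assembled outside its annotated exons is underestimated. Depth is the ratio of coverage to FPKM, in aligned bases, and was higher in Luxi cattle (ratio of medians 1.21). Library pairs correlated at 0.859 to 0.967 on log2(FPKM + 1). The number of animals limits the precision.

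Genes were tested with limma 3.58.1 in R 4.3.3 (lmFit and eBayes with a trend on log2(FPKM + 1), Benjamini-Hochberg adjustment over all 9765 genes tested). Cuffdiff, which the authors used, needs alignments and was not run. Ratios, shares and levels per marker were tested by exact two-sided permutation. In data simulated with the means and spreads of these genes, 200 genes with a mean log2(FPKM + 1) above 1 were changed. A log2 change of 1.5 was called in 61.5% of them, and a change of 3.0 in 93.0%. Smaller changes, and changes of genes with lower means, were not simulated. For FADS1 the lowest log2 fold change that this scale allows was -0.50, so it could not be called lower in Luxi cattle. The limma p-values set a breed difference against the spread between these animals, with variances moderated over all genes. With 3 animals per breed an exact two-sided p cannot fall below 0.1.

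The members and gene lists were chosen with earlier results of these data known. Named were all members, every called gene of the pathway list, the 3 genes with the largest change in each of its groups, the adipocyte markers, and the 3 genes closest to the member with the highest FPKM. SREBF1, ACTA1, DES, PECAM1 and TNNT3 were named outside this rule. The alternatives were a pseudocount of 0.1, no filter, a mean FPKM of at least 5, TPM, quantile normalization, size factors, voom, eBayes without the trend, reference transcripts only, assembled transcripts at 90%, other fold thresholds, a replicate block and each animal left out. The length-weighted FPKM and the alternatives for levels per marker, all 9 markers among them, were chosen after seeing the data. Coordinates are those of the files; a gene table of ARS-UCD2.0 was used for names only. Python 3.11.15 and pandas 2.3.3 were used.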

Additional observations from a re-analysis of the deposited data

Results flagged for a closer look

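A transcript assembled on the opposite strand at the start of SCD came from data that no comparison above used. In 6 of 6 animals a transcript of 2 exons was assembled there on the minus strand, at 0.350 to 1.36 FPKM and 24 to 95.9 estimated reads, above the limit of 3 reads that a count of 0 allows. Its intron, from 21264147 to 21264662 on chromosome 26, has the same ends as the first intron of SCD on the plus strand. Whether its reads come from RNA of the minus strand or are SCD reads given the wrong strand was not tested. No control samples exist to set it against, and it was chosen for description after its values were seen. Spliced opposite-strand transcripts that share an intron with the gene were also assembled for FASN in 2 animals and for ACACA in 2, and for no other member. All of the opposite-strand transcripts on SCD held 0.403 to 0.728% of the reads estimated at its locus.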

How the results depend on the processing

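The count of members called was 0 in the main analysis and in 17 alternatives, and 1 with a pseudocount of 0.1 (ELOVL6), with reference transcripts only (FADS2) and on the adjusted p alone (ELOVL6). It was 0 with each animal left out. Of the log2 fold changes of members, ACACA reversed, to -0.10 with TPM, -0.11 with size factors, -0.13 with quantile normalization, -0.041 with voom and -0.00013 with length weighting, and ranged from -0.0886 to 0.102 with an animal left out. The log2 ratio of SCD over FASN ranged from -0.57 to 0.34 with an animal left out and turned positive without Shandong black replicate 2 (0.06) and Luxi replicate 3 (0.34). The other 9 members kept their direction in every alternative run. The count of pathway genes called was 1, and 0 without a filter, with voom, with assembled transcripts at 90%, with length weighting and at a log2 fold change of 2, 2 with TPM and on the adjusted p alone, and 0 to 3 with an animal left out (3 without Luxi replicate 1). A count of 1 was not always PRKAA2: it was SLC25A1 with size factors, quantile normalization and the replicate block, PPARG with reference transcripts only and FADS3 without Luxi replicate 2. The count over all genes, 249, was 65 without a filter, 139 at a mean FPKM of 5, 92 with voom, 162 with reference transcripts only and 65 at a log2 fold change of 2. It was 3 without Shandong black replicate 3, 15 without replicate 1, 591 without Luxi replicate 1, 48 without replicate 2 and 86 without replicate 3. The causes were not tested. In the fit with the replicate block it was 134. Same-numbered animals of the breeds correlated at 0.0905, 0.0899 and 0.0816 in their deviations from the breed means, each animal best with its own number, but below 0.1, so the numbers were not treated as pairs. Under the block the ELOVL6 adjusted p from limma was 0.0902 and that of PRKAA2 was 0.0576. The filter at a mean FPKM of 5 left FASN and SCD alone of the members. The ratios with SCD5, ELOVL6 or FADS2 gave no value on reference transcripts only, where an animal is listed at 0. Members with few estimated reads, down to 9 for THRSP and 43 for SCD5, are the least precise.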
